A study of Drosophila melanogaster with 3 samples.

Results

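Among the reproducible Lpt-GFP peaks of Drosophila white prepupae, 503 (8.23%, exact 95% CI 7.56 to 8.95) held a GA run close to their summit and 5607 (91.8%) did not. A GA run was defined as at least 7 strictly alternating G and A bases that start and end in G, on either strand, and it had to lie within the summit window, the summit base with 100 bp on each side. This window can reach past the ends of a narrow peak, so a run that counts may lie outside the peak interval. Membership was set by the dm6 sequence alone and used no measured signal beyond the place of the summit. The peaks without such a run served as the comparison. Binding was mapped by immunoprecipitating chromatin with an antibody against GFP and sequencing it (ChIP-seq). The material was whole animals of a transgenic line that stably expresses Lpt with GFP at its C terminus, at the white prepupa stage, with both sexes pooled and the age recorded as unknown. All 3 samples were biological replicates of this 1 group, and the tissues of the animal were not separated. No control sample and no line without the fusion were analysed here, so signal at GA runs that does not depend on Lpt-GFP was not measured.

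Lpt works in a complex with the histone methyltransferase Trr, a relative of the COMPASS methyltransferases, which marks enhancers and promoters. The GAGA factor, encoded by Trl, binds runs of alternating G and A, recruits nucleosome remodellers and keeps promoters such as those of heat shock genes accessible. Pipsqueak, encoded by psq, and CLAMP bind similar sequences, so a GA run does not tell which protein is present. Binding of the GAGA factor was not measured in these samples, and the peaks are therefore described by their sequence only.

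The sequences below show the kinds of run that the results turn on, each with 20 bases on both sides. They were read from the plus strand of the RefSeq release 6 genome (dm6). Capitals mark the longest run that lies inside the summit window. It appears as alternating C and T where the GA strand is the minus strand. In the Hsp26 stretch, the longer run in lower case lies outside that window. None of the stretches overlaps an annotated exon. The first comes from the strongest peak with a run, upstream of Lk6, a kinase of a translation initiation factor (3R:11761104-11761150). The second lies in an intron of trx, which encodes a histone H3 methyltransferase (3R:14283951-14283997). The third lies upstream of Hsp26, a small heat shock gene long used to study the GAGA factor (3L:9377454-9377500), and the fourth at Trl itself (3L:14756511-14756557). The next pair come from introns of Eip75B, an ecdysone-induced nuclear receptor gene (3L:17986577-17986631), and of InR, the insulin receptor gene (3R:21605617-21605677). The last pair show long runs, at the ecdysone-induced transcription factor gene br (X:1623345-1623409) and in an intergenic region whose nearest coding gene is Dip-B (3R:13794794-13794864).
Lk6, plus strand, run of 7: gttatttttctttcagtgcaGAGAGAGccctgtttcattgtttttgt
trx, plus strand, run of 7: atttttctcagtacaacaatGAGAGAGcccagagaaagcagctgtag
Hsp26, plus strand, run of 7: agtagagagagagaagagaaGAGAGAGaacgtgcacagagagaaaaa
Trl, GA on the minus strand, run of 7: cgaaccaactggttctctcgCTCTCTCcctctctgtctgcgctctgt
Eip75B, GA on the minus strand, run of 15: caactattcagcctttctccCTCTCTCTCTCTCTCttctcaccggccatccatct
InR, GA on the minus strand, run of 21: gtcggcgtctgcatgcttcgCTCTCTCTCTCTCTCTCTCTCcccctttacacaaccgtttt
br, plus strand, run of 25: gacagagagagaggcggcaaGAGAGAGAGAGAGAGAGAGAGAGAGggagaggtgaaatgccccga
Dip-B, plus strand, run of 31: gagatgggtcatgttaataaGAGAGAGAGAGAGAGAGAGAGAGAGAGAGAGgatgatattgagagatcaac

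Most members carried 1 short run. The longest run had 7 bases in 299 peaks (59.4%), 9 bases in 84, 11 in 41, 13 in 23 and 15 or more in 56 peaks. In all, 404 peaks held 1 run, 79 held 2 and 20 held 3 or more, up to 5, which gave 628 runs. The longest run of a peak was masked as repetitive in the reference in 224 peaks (44.5%), and 23 peaks held runs on both strands. Run length went with no ordered change in pooled signal, the enrichment value that the authors give each peak: medians were 165, 174, 167, 163 and 157 from the shortest to the longest class. The median replicate 3 signal was 41.6, 39.4, 43.9, 32.7 and 31.9 in the same order. Promoter summits made up 62.2%, 60.7%, 61.0%, 43.5% and 53.6%, and peaks among the strongest regions of all 3 replicates 57.5%, 59.5%, 53.7%, 39.1% and 42.9%. These values were lower in both classes of 13 or more bases than in the 3 classes below, and the difference was not tested. At the edge of the definition, the 1367 peaks whose longest run had 5 bases had a median signal of 166 and 47.8% promoter summits, and the 299 peaks just inside it, with 7 bases, had a median signal of 165 and 62.2% promoter summits.

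GA runs were more frequent at Lpt-GFP summits than in the genome at large. They were found in 8.23% of IDR summit windows, the peaks that passed the authors' irreproducible discovery rate (IDR) threshold. Of 664860 windows of the same length tiled over the genome, 2.45% held a run. Windows at annotated coding transcription start sites (TSSs) held one in 4.69% when centred on the TSS and in 6.19% when centred 100 bp upstream. Among the strongest peaks of each replicate list, as many as there are IDR peaks and taken at their own summits, the share was 8.82% in replicate 1, 10.9% in replicate 2 and 5.71% in replicate 3, with a mean of 8.49% ± 2.63 (SD, n = 3). Replicate 3 was lowest and lay below the share upstream of TSSs. By arm, the share of IDR peaks with a run ranged over the large arms between 6.41%, on 2L, and 9.27%, on 2R. On chromosome 4, 0 of 14 peaks held one. The X carried 103 of the 503 peaks with a run (20.5%) and 18.6% of the peaks without one on the 5 large arms, a difference that did not pass (log2 odds ratio 0.17, two-sided Fisher's exact test, adjusted p = 0.311).

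Lpt-GFP peaks with a GA run lay at promoters more often than peaks without one. A summit within 1000 bp of any annotated TSS was counted as a promoter summit, and 302 of 503 peaks with a run (60.0%, exact 95% CI 55.6 to 64.3) met this, against 2585 of 5607 peaks without (46.1%, CI 44.8 to 47.4). The log2 odds ratio was 0.81 ± 0.14 (SE; two-sided Fisher's exact test over peaks, adjusted over 6 contrasts, p = 6.23e-09). In the replicate lists, the promoter share of regions with a run was 62.0%, 62.9% and 64.5%, and that of regions without was 47.3%, 47.6% and 44.9%. The groups did not overlap, and the difference was 16.5 ± 2.70 percentage points (SD, n = 3). The other classes moved the opposite way. Introns held 31.6% of summits with a run and 39.8% of those without (exact adjusted p = 0.000453), and intergenic regions held 6.56% and 12.6% (exact adjusted p = 4.76e-05). Exons away from TSSs held 1.79% and 1.48% (exact adjusted p = 0.565). Read by class, a run was present in 10.5% of promoter peaks, 6.66% of intronic peaks and 4.45% of intergenic peaks. Without regard to Lpt-GFP, runs were also commoner at or just upstream of coding TSSs (4.69% and 6.19% of windows) than in the genome at large (2.45%). Whether the promoter difference exceeds this base rate was not tested.

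**Figure D1:**
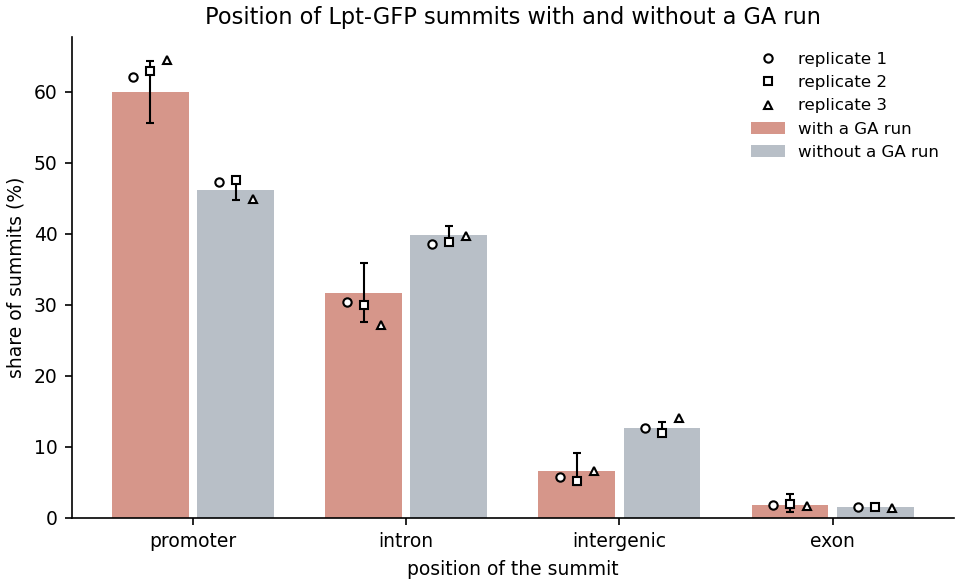
Share of summits (%, y axis) in each position class (x axis) for IDR peaks with a GA run (left bar of each pair) and without one (right bar). Whiskers are exact 95% intervals and symbols are the 3 replicate lists. At promoters every replicate value with a run (62.0% to 64.5%) lies above every value without (44.9% to 47.6%), and in introns and intergenic regions every one lies below.

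Windows with a run were richer in G and C, with a median GC content of 46.8%, against 35.8% in windows without, so GC content was entered in a logistic model beside the run. The promoter difference then had a log2 odds ratio of 0.65 (binomial logistic model over peaks, adjusted p = 1.48e-05). In 5 equal bins of GC content, from the lowest to the highest, the promoter shares with and without a run were 43.5% and 48.6%, 64.7% and 40.4%, 57.4% and 40.4%, 63.9% and 47.8%, and 59.4% and 55.8%. The share was thus lower with a run in the bin of lowest GC content, which held 23 peaks with a run. The median distance to the nearest TSS was 631 bp for peaks with a run and 1240 bp for peaks without, and 27 (5.37%) and 535 (9.54%) lay more than 10 kb away. Within promoters, 44.4% of summits with a run and 40.5% of those without lay in the first 250 bp upstream of the TSS (exact adjusted p = 0.216). Summits 500 to 1000 bp downstream made up 17.5% and 12.3% (exact adjusted p = 0.0274), a split made once the data had been seen. Median peak width was 436 bp in both groups. At the 302 promoter peaks, the GA strand of the longest run was the sense strand of the nearest TSS in 151 (50%, exact 95% CI 44.2 to 55.8), and 198 runs (65.6%) lay upstream of that TSS. That share was close to those of the summits themselves, which lay upstream in 63.6% of promoter peaks with a run and 65.2% of those without.

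Summits held runs more often than the DNA beside them, mainly at promoters. Windows of the same size 1000 bp to each side served as flanks. At promoters, 10.5% of summit windows and 4.68% of flanks held a run, a ratio of 2.24 (exact two-sided McNemar test with 1 flank per summit, adjusted p = 1.12e-15). In introns the values were 6.66% and 4.31% (ratio 1.54, exact adjusted p = 0.000192), and in intergenic regions 4.45% and 3.50% (ratio 1.27, exact adjusted p = 0.488). The 92 exonic summits gave 9.78% and 3.26% (exact adjusted p = 0.0286), a call that rested on 9 summits and was lost with flanks 2000 bp away (exact adjusted p = 0.344). The summit windows held less G and C than the flanks, with medians of 37.3% and 42.8% at promoters. In the replicate lists, the promoter ratio was 2.61, 3.18 and 1.84 in replicates 1, 2 and 3 (mean 2.55 ± 0.67, SD, n = 3). The intronic ratio was 1.43, 2.02 and 0.909, so replicate 3 showed no surplus of runs at intronic summits.

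Over all IDR peaks, runs were denser beside the summit than on it. In the 503 peaks, the centre of the longest run lay within 33 bp of the summit in 160 (31.8%), against 34.8% expected if runs were spread evenly over the window (exact binomial p = 0.175). With 50 bp in place of 33 bp, the share was 46.7% against 52.4% expected (exact p = 0.0109). To look past the window, runs centred within 50 bp of any IDR summit were counted against runs centred more than 100 and up to 150 bp away, a comparison of stretches of similar length made once the data had been seen. Of all IDR peaks, 257 (4.21%) held a run in the inner stretch and 386 (6.32%) in the outer one (exact McNemar test, adjusted p = 2.27e-07). At promoters the shares were 5.13% and 8.73% (exact adjusted p = 2.02e-07), in introns 3.73% and 4.31% (exact adjusted p = 0.333), and in intergenic regions 1.62% and 3.91% (exact adjusted p = 0.0102). Each replicate had the lower share at the summit: 4.55% and 6.14% in replicate 1, 5.60% and 6.64% in replicate 2, and 2.45% and 4.42% in replicate 3 (exact adjusted p = 0.000111, 0.0156 and 3.41e-09). A peak whose only run lay in the outer stretch counts here among the peaks without one.

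**Figure D2:**
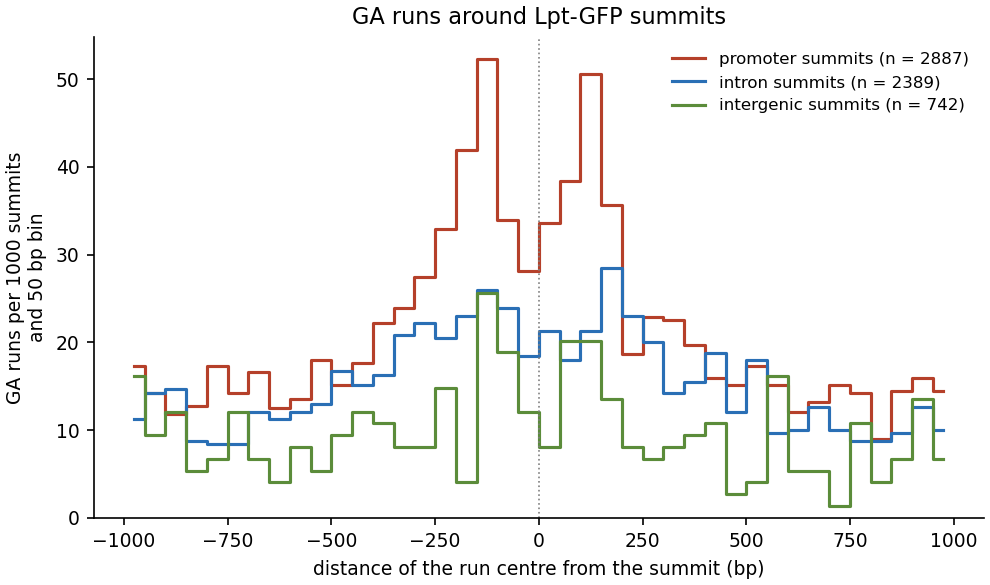
GA runs per 1000 summits in bins of 50 bp (y axis) by the distance of the run centre from the IDR summit (x axis, bp), for promoter, intronic and intergenic summits. Promoter summits show a dip at the centre, with 30.8 runs within 50 bp, between shoulders of 51.4 runs at 100 to 150 bp, above 14.5 runs at 500 to 1000 bp.

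With the summit window of 100 bp on each side, pooled signal did not separate the groups. The replicates differed in how strongly they showed peaks with a run. The median pooled signal was 166 (lowest 110, highest 1461) for peaks with a run and 171 (lowest 110, highest 1912) for peaks without, and 47.3% and 50.2% lay above the median of the list (log2 odds ratio −0.17 ± 0.13, SE; Fisher's exact test, adjusted p = 0.271). Leaving out replicate 3 made this difference pass (42.1% and 50.8%, log2 odds ratio −0.51, exact adjusted p = 0.00112), whereas with GC content in the model the sign turned (log2 odds ratio 0.33, adjusted p = 0.0404). For each IDR peak the strongest overlapping region of each replicate list gave its replicate signal. In replicate 1 the medians were 57.1 with a run and 56.1 without. In replicate 2 they were 88.7 with a run and 77.3 without. In replicate 3 they were 39.5 with a run and 50.6 without. The ratios of with over without were therefore 1.02, 1.15 and 0.780, which straddle 1 (mean 0.982 ± 0.187, SD, n = 3; exact sign-flip permutation test, two-sided p = 1.00, where 3 replicates allow no p below 0.25). In replicate 3, 21 of 503 peaks with a run had no overlapping region, against 118 of 5607 without.

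**Figure D3:**
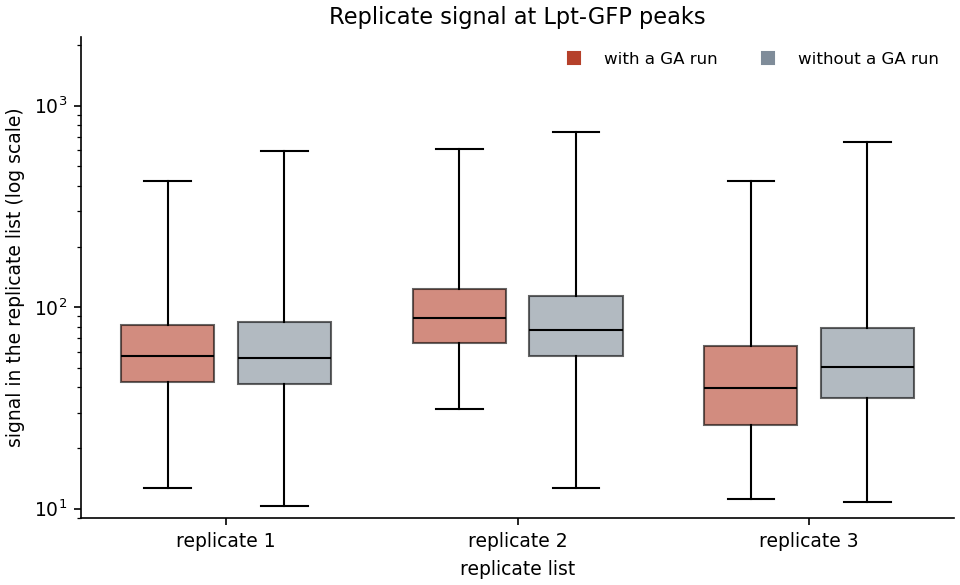
Signal in each replicate list (y axis, log scale) at IDR peaks with a GA run (left box of each pair) and without one (right box), with boxes for the quartiles, lines for the medians and whiskers for the lowest and highest peak. The median with a run is higher in replicate 2 (88.7 against 77.3) and lower in replicate 3 (39.5 against 50.6).

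The share of peaks found among the strongest regions of a replicate, as many as there are IDR peaks, showed the same split between replicates. In replicate 1, 87.7% of peaks with a run and 85.6% of peaks without were among the strongest (exact adjusted p = 0.206). In replicate 2 the shares were 92.6% and 84.5% (exact adjusted p = 2.01e-07). In replicate 3 they were 65.0% and 82.8% (exact adjusted p = 3.38e-19). With GC content in the model, the log2 odds ratios were 0.45, 0.99 and −0.41 (binomial logistic models, adjusted p = 0.0310, 0.000365 and 0.0135), so the sign in replicate 3 stayed opposite to the others. Peaks strong in all 3 replicates made up 277 of 503 with a run (55.1%) and 3603 of 5607 without (64.3%; log2 odds ratio −0.55 ± 0.13, SE, Fisher's exact test, adjusted p = 0.000116). This difference was lost with GC content in the model (log2 odds ratio −0.06, adjusted p = 0.676) and turned to 81.3% and 74.1% without replicate 3 (log2 odds ratio 0.60, exact adjusted p = 0.000539). The pattern of strong in replicates 1 and 2 but not in 3 was found in 132 peaks with a run (26.2%) and 553 without (9.86%).

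The log2 ratio of replicate 3 over replicate 2 signal, used as a description since the lists differ in scale, had a median of −1.09 in peaks with a run and −0.57 in peaks without. It moved with base composition. Split into 5 equal bins of GC content, peaks with a run had medians of −0.49, −0.57, −0.58, −1.03 and −1.34 from the lowest to the highest bin, and peaks without had −0.43, −0.49, −0.49, −0.68 and −1.17. The bin of highest GC content held 266 of the 503 peaks with a run and 928 of the 5607 without. Within it, 46.2% with a run and 46.3% without were strong in all replicates. From the lowest bin to the fourth, these shares were 87.0% and 70.9%, 79.4% and 68.7%, 61.7% and 69.3%, and 58.6% and 61.7%, so peaks with a run had the higher share in the 2 bins of lowest GC content. In each bin the median was lower with a run, by 0.06 to 0.35 on the log2 scale. What sets replicate 3 apart was not tested.

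Regions with a run passed the authors' IDR threshold more often than others. Of the 30000 regions of the pooled input list, 26.4% overlapped an IDR peak. The share was 674 of 1865 among regions with a run at their summit (36.1%, exact 95% CI 34.0 to 38.4) and 7243 of 28135 among those without (25.7%, CI 25.2 to 26.3). The log2 odds ratio was 0.71 ± 0.07 (SE; Fisher's exact test, adjusted p = 6.84e-21), and 1.00 with GC content in the model (adjusted p = 7.83e-41). Several input regions can overlap 1 IDR peak, so these regions are not independent. Along the ranking by signal, runs were scarcer among weak regions than among strong ones in every list. In the pooled input list, 7.80%, 8.63% and 9.30% of the first 3 of 10 equal bins held a run, and 3.8% of the last. In replicate 2 the bins ran from 10.2% to 3.43%, with a highest value of 11.7% in the second. In replicate 3 they ran from 5.59% to 2.65%. Within the IDR list itself no such fall was seen, with 7.20% in the bin of highest signal and 8.67% in the bin of lowest signal.

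**Figure D4:**
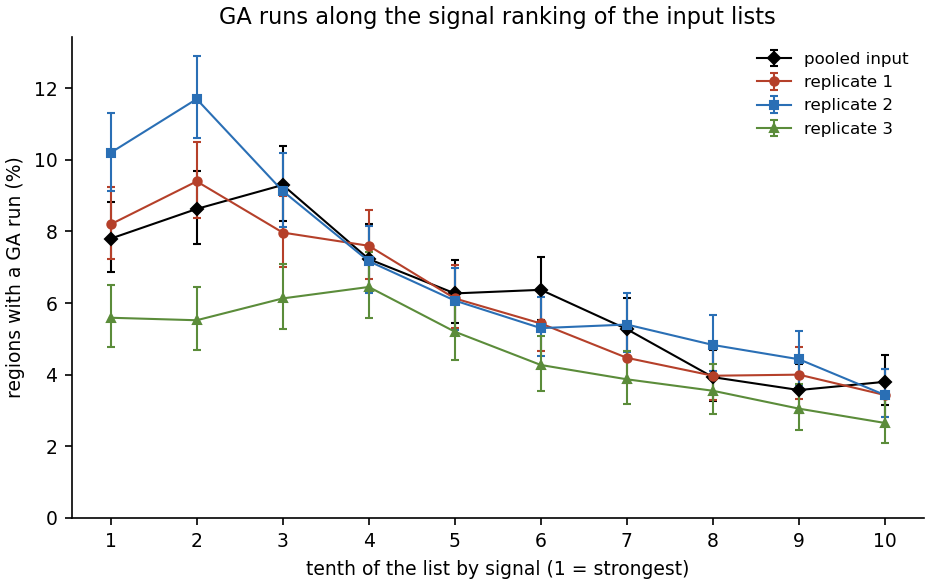
Share of regions with a GA run (%, y axis, with exact 95% intervals) in 10 equal bins of each input list by signal, the strongest regions at 1 (x axis), for the pooled list and the 3 replicate lists. All 4 lines end below 4%, and replicate 3 starts at 5.59%, below the 7.80% to 10.2% of the other lists.

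Peaks with a run had close neighbours more often. Another IDR summit lay within 2000 bp of 267 of 503 peaks with a run (53.1%) and of 43.9% of peaks without (log2 odds ratio 0.53 ± 0.13, SE; Fisher's exact test, adjusted p = 0.000122). The call was lost with GC content in the model (binomial logistic model, log2 odds ratio 0.30, adjusted p = 0.0521). It passed when position class was added to GC content (binomial logistic model, log2 odds ratio 0.34, adjusted p = 0.0310). Some peaks overlapped each other: 87 of 503 with a run (17.3%) and 634 without (11.3%) shared bases with another IDR peak. Overlapping peaks can share 1 replicate region and so carry the same replicate signal. When summits within 1000 bp of each other were counted once, 400 of 5236 peaks held a run. The neighbour shares were then 27.8% with a run and 23.6% without, and the call was lost (Fisher's exact test, adjusted p = 0.112). Such counting itself removes the closest neighbours. The mean signal ratio was 0.961 ± 0.192 (SD, n = 3 replicates).

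The strongest peaks with a run stood at genes of many kinds. The peak of highest signal, rank 12 in the IDR list, lay 984 bp upstream of a TSS of Lk6 (3R:11760875-11761290), with a pooled signal of 1461 and 422, 608 and 425 in replicates 1, 2 and 3. An intergenic peak 3742 bp from CG31668 followed at rank 23, with 406, 488 and 352. An intronic peak of CG3726, with a run of 13 bases, had 344, 448 and 364. Each was high in all replicates and highest in replicate 2, as were all of the 15 strongest members, though the scale of signal differs between the lists and is largest in replicate 2. At Tlk, a kinase gene that acts in chromatin assembly, the intronic peak at rank 44 had 310, 392 and 305. At Cat, which encodes catalase, the promoter peak had 252, 448 and 143 and varied most among the 15 (mean 281 ± 155, SD, n = 3). At LPCAT, a phospholipid acyltransferase gene, it had 270, 287 and 261 and varied least (273 ± 13.6). The rest of the 15 included the tyrosine kinase gene Btk, the casein kinase gene gish and the adaptor gene Dok. Of the 15, 11 were promoter peaks, 7 lay on the X, and 13 had a run of only 7 bases. In all 15 the centre of the longest run lay 58 to 95 bp from the summit, off the summit itself.

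The 10 peaks with the longest runs held runs of 21 to 37 bases and ranked 1038 to 6079 by pooled signal, and 4 of them were strong in all replicates. The run of 37 bases lay in an intronic peak of Roc2, a ubiquitin ligase subunit gene, with 56.4, 58.1 and 23.1 in replicates 1, 2 and 3. Runs of 31 bases lay at Dip-B (45.9, 64.0 and 30) and at CG12730 (59.2, 91.5 and 44.8). The others stood at Cad86C, a cadherin gene, RhoGDI, Mkp3, a MAP kinase phosphatase gene, bif, mtgo, br and MESK2. The peak at mtgo, at rank 1038, was taken from those tied at 21 bases because its signal was higher. Among the tied peaks left out were that of InR at rank 1930 and an intronic peak of Raf, a MAP kinase kinase kinase gene, with 78.2, 71.2 and 66.2.

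The 503 peaks were assigned to 449 of 13945 coding genes (3.22%), which make up 13% of the 3463 genes that host an IDR peak. A peak was assigned to every coding gene with a TSS within 1000 bp (284 peaks), otherwise to every coding gene that holds it (176) or to the nearest coding TSS (43). Some peaks therefore count for more than 1 gene. Of the genes, 384 hosted 1 such peak, 50 hosted 2 and 15 hosted 3 or more. The 15 genes together held 67 peaks with a run, and long genes with many IDR peaks had more chances to be among them. Eip75B, which spans 114 kb, had 8 of its 29 peaks with a run, and Eip74EF, an ecdysone-induced Ets factor gene, had 7 of 20. InR had 7 of 15. The factor genes bun, psq and tara had 5 each, of 9, 15 and 24 peaks, and skd, a Mediator kinase module gene, had 4 of 6. The homeodomain gene ct had 4 of 8, ftz-f1 4 of 10 and trx 3 of 4. Further genes with 3 were Dad, EcR, Sin3A, Syp and Tlk, of 7, 15, 6, 8 and 17 peaks.

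**Figure D5:**
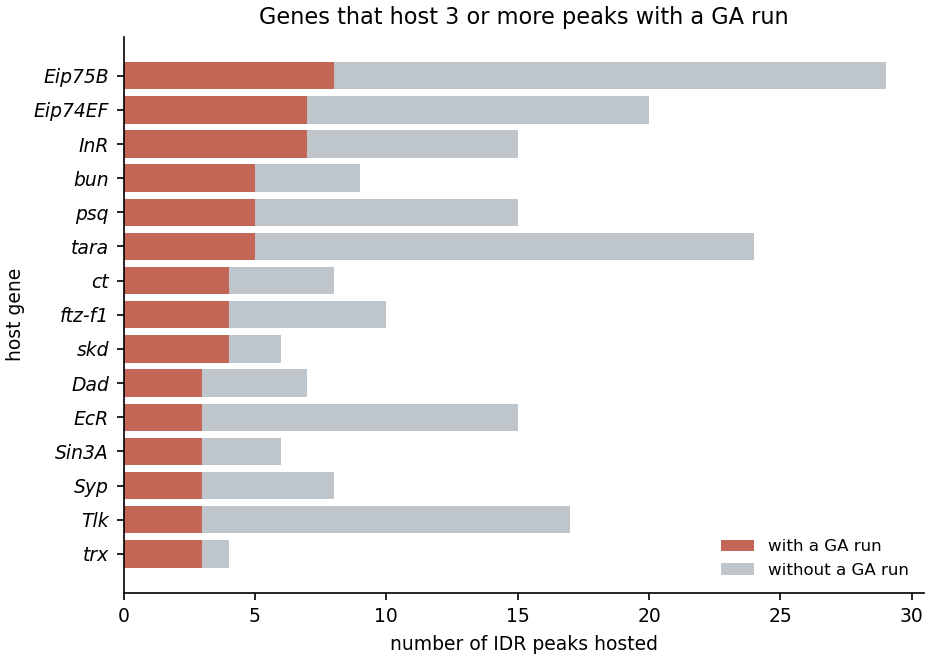
Number of IDR peaks (x axis) hosted by each of the 15 genes that hold 3 or more peaks with a GA run (y axis), split into peaks with a run (left segment) and without one (right segment). Eip75B has 8 of 29, Eip74EF 7 of 20 and InR 7 of 15, whereas trx has 3 of 4.

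Within these genes, peaks with a run ranged from strong to weak. At trx, the intronic peak at rank 132 had 177, 326 and 198 in replicates 1, 2 and 3. A further intronic peak at rank 343 had 167, 216 and 120. The peak with a run of 19 bases, at rank 1656, had 86.6, 148 and 20.5 and was not among the strongest of replicate 3. At InR the strongest peak with a run (rank 792) had 82.5, 215 and 56.9, and it shared these values with an overlapping peak at rank 1930 that holds the run of 21 bases. The other InR peaks with a run ranked 1509 to 5586. At Eip75B, the intronic peak with a run of 15 bases (3L:17986359-17986794, rank 833) had 102, 188 and 71.3. The promoter peak of Eip75B at rank 888 had 115, 164 and 63.5, and its weakest member, at rank 5531, had 39.8, 73.2 and 12.5. Among all 8 Eip75B peaks, replicate 2 was highest and 5 peaks were strong in all replicates. At ct, peaks at ranks 312 and 5007 overlapped and shared the values 138, 264 and 120.

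Genes linked to GA-rich DNA did not all carry the run where Lpt-GFP was strongest. Trl hosted 5 IDR peaks, and the strongest of them, at rank 11, held no run in its window. The 1 Trl peak with a run in its summit window, although outside the peak interval, ranked 4530, with a pooled signal of 134. The strongest replicate regions that overlap it averaged 93.1 ± 11.3 (SD, n = 3), and their own summits may lie elsewhere. Peaks with a run had lower quartiles of 129 in pooled signal and of 42.3, 66.2 and 26.1 in replicates 1, 2 and 3. At psq, 5 of 15 peaks held a run, the strongest at rank 561, 81 bp downstream of a TSS, with 145, 174 and 104. Hsp26 hosted 1 IDR peak, and its summit lay 141 bp upstream of the TSS, with a run centred 91 bp from the summit on the side of the TSS. The peak had 108, 218 and 85.9 in replicates 1, 2 and 3. With 200 bp on each side of that summit there were 3 runs. The peak of Hsp27, at rank 8, held none, and no IDR peak was assigned to Hsp70Aa. Act5C had 6 peaks and en 1, all without a run. Ubx, eve, ftz, Kr, Lpt, trr and Utx hosted no IDR peak.

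Gene lists differed in how many of their Lpt-GFP peaks held a run, and the values are given as counts beside the 8.23% of all IDR peaks, without a test. Of the 177 peaks at ecdysone response genes, 38 (21.5%) held one, at 15 of 31 genes. These included crol, an ecdysone-induced zinc finger gene (rank 420; 148, 205 and 122 in replicates 1, 2 and 3), and EcR, the ecdysone receptor (rank 1003; 92.1, 175 and 47.5). Hr3, a nuclear receptor of the prepupal cascade, had 71.8, 137 and 30.9 at rank 1512. Nuclear receptor genes, which share members with that list, had 23 of 115 (20%). Eip75B and Eip74EF gave 15 of the 38 ecdysone peaks. Genes of GAGA-binding, BTB and Polycomb response element-binding factors had 12 of 52 (23.1%), at 7 of 17 genes, among them psq, mod(mdg4), grh, ttk and lola. COMPASS and trithorax genes had 8 of 28 (28.6%), at trx, osa, nej, ash2 and kis. At nej, which encodes the acetyltransferase CBP, the peak at rank 1798 had 78.7, 97.6 and 59.2. Polycomb group genes had 6 of 37 (16.2%), at Kdm2, Su(z)2 and jing. Heat shock genes had 2 of 6, at Hsp26 and at a promoter peak that Hsp22 shares with CG4456. At the latter peak the run lay in the summit window but outside the peak interval.

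Signalling lists lay on both sides of the 8.23%. The JNK and AP-1 list had 4 of 27 peaks with a run (14.8%), at puc, a phosphatase of the pathway (rank 935; 117, 129 and 82.4 in replicates 1, 2 and 3), Traf4, kay and hep. The Dpp and activin list had 8 of 58 (13.8%), among them Dad, an inhibitory Smad gene (rank 690; 132, 138 and 113), shn, a zinc finger factor gene (88.3, 185 and 32), brk and wit. EGF receptor genes had 8 of 70 (11.4%). At spi, a ligand gene, the peak at rank 1850 had a pooled signal of 229. The strongest replicate regions that overlap it had 141, 195 and 148, and their own summits may lie elsewhere. Notch genes had 7 of 65 (10.8%), Hippo genes 4 of 58 (6.90%) and Hedgehog genes 2 of 29 (6.90%). Axon guidance and adhesion genes had 3 of 70 (4.29%), and Wingless genes had 1 of 52 (1.92%), at fz2, a receptor gene. Wing and leg disc selectors had 6 of 36 (16.7%), among them sd, hth, dac and salr. No peak with a run was found at ribosomal protein genes (0 of 25, which allows a share of up to 12%, taken as 3 counts of the total), chemoreceptor genes (0 of 29, up to 10.3%), Hox and segmentation genes (0 of 23, up to 13%), autophagy genes (0 of 16, up to 18.8%) or JAK-STAT genes (0 of 15, up to 20%). The same held for muscle structure and cuticle genes (0 of 13 each, up to 23.1%) and for proteasome and neuronal genes (0 of 6 each, up to 50%).

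Of 20 further motifs searched on both strands in the same windows, 4 differed in frequency between peaks with and without a GA run. The motif CACACAC was found in 19.3% of peaks with a run and 9.10% of peaks without (exact adjusted p = 2.76e-10), and in 19.4% ± 2.16 and 8.85% ± 1.95 in the replicate lists (SD, n = 3). TATAAA was found in 16.7% and 32% (exact adjusted p = 1.52e-12), and the homeodomain motif TAATTA in 5.96% and 14.6% (exact adjusted p = 4.93e-08). TATCGATA, the DRE bound by DREF, was found in 0 of 503 peaks with a run and in 1.19% of peaks without (exact adjusted p = 0.0292). In the replicate lists it was found in 0.742%, 0.599% and 0.860% of regions with a run and in 1.20%, 0.974% and 1.35% of those without. Leaving out any 1 replicate kept only peaks strong in both others, 299 to 409 of them with a run. In each such subset 3 motif calls were left, 1 higher and 2 lower in peaks with a run. The same 4 calls were made with the bases of the GA runs masked, so overlap with the run did not enter them. With GC content in the model, 0 of the motifs passed, and DRE had no finite estimate there. Motifs such as GCCATNTT of Pho (3.38% and 3.14%, exact adjusted p = 0.831) and CAGGTA of Zelda (4.57% and 3.60%, exact adjusted p = 0.483) did not pass in either fit. A match is a description of the letters and was not tested as a binding site.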

How the data were processed

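Chromatin of 3 biological replicates was measured, per the labels. The authors deposited dm6 lists of peaks and background regions, 1 per replicate and 1 for all replicates pooled, and a list that passed an irreproducible discovery rate threshold, per the file headers and descriptions. In each deposited list, column 7 is the authors' signal, an enrichment value within that list, and a −log10 q-value and the summit offset follow. No sources used here give the aligner, peak caller or threshold. Depth in reads is unknown. The signal served to rank and describe peaks, and its scale differs between lists (medians 18.5, 25.0 and 16.7 in replicates 1, 2 and 3).

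Summit windows (100 bp on each side) were read from the RefSeq release 6 genome, and TSSs from Ensembl release 115 without transposable elements. Summits were classed as promoter (within 1000 bp of a TSS), then exon, intron or intergenic. Replicate shares, other than those in bins by signal, come from the regions of highest signal in each list, as many as there are IDR peaks. A peak that overlaps one of these regions was counted as strong in that replicate. The replicate signal of an IDR peak is that of the strongest region in the whole replicate list that overlaps it by at least 1 base. Shares were compared over peaks with Fisher's exact test, two-sided, and p-values were adjusted after Benjamini and Hochberg (6 main contrasts, the classes, or 20 motifs), flanks by exact McNemar tests, and log2 odds ratios had 0.5 added to each cell. GC models were logistic regressions over peaks. The 95% intervals are exact (Clopper-Pearson) and reflect counting error alone, and the limit for a count of 0 is 3 counts of the total. All samples form 1 group, so no condition was compared, and p-values over peaks describe the pooled list. The run finder and the test were tested on simulated data. Tools were scipy 1.17.1, statsmodels 0.14.6, pandas 2.3.3, numpy 2.4.6 and matplotlib 3.10.9 in Python 3.11.15.

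Named genes were hosts of the 15 strongest and the 10 longest-run peaks, genes with 3 or more such peaks, up to 4 members per gene list and 20 genes named whatever their values. Of these, 1 gene is not reported here. Other members of the lists, named to account for small counts, were chosen after their values were seen. The members, lists, motifs and tests were chosen with earlier results of these data known. Outdated gene symbols were updated to those of the annotation. The dm3 lists were not used.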

Additional observations from a re-analysis of the deposited data

How the results depend on the processing

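Values here are log2 odds ratios of peaks with over peaks without a run, unless another quantity is named. Replicate 1, 2 or 3 was left out by keeping only peaks strong in both others, of which 302, 299 and 409 held a run. The pooled signal of the kept peaks still included all 3 replicates. The share strong in all replicates was instead taken over all 503 peaks with a run. The promoter share kept direction and call in all 17 alternatives run (0.32 to 1.15) and the share that passed IDR in all 8 (0.32 to 1.00). The share above the median signal turned to 0.232 in the window with 200 bp on each side and to 0.329 with GC content in a logistic model, both past the threshold. It was 0.290 with GC content and position class, which missed the threshold, and 0 with runs of any first base. Leaving out each replicate gave −0.506 (without replicate 3) to −0.0103. The share strong in all replicates was −0.00969 in the wider window, −0.0594 with GC content and −0.0617 with position class added. It was −0.291 with a stricter number of strongest regions, and none of these 4 values passed the threshold. Leaving out each replicate gave −0.897 to 0.598 (without replicate 3). Another summit within 2000 bp missed the threshold with runs of 9 or more bases (0.380), with GC content (0.295, though 0.340 passed with position class added) and with summits within 1000 bp counted once (0.320). The X share passed in the wider window (0.364) and in the list of replicate 3 (0.419). A run within 50 bp of the summit passed as scarcer than even spread (46.7% of peaks), and the exonic surplus over flanks 2000 bp away (3.00-fold) did not pass. With GC content in the model, 0 motifs passed, and leaving out any 1 replicate gave 3 in place of 4. The mean replicate signal ratio (0.982) was 1.23, 1.34, 0.962, 1.09 and 1.04 from the bin of lowest to that of highest GC content, bins chosen after the data were seen. The causes were not tested. No paired analysis was possible because the samples form 1 group, so no group shares replicate numbers with another; ratios within each replicate compare peaks of 1 sample. Read depth is unknown, so the precision of single peaks cannot be given.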
